A study of Mus musculus with 8 samples.

Results

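The genes described here encode the subunits of RNA polymerases I, II and III and the factors that work most closely with polymerases I and III. They were chosen by name: protein-coding genes whose symbols begin with Polr1, Polr2 or Polr3, plus Ubtf, Rrn3, Taf1a to Taf1d, Brf1, Brf2, Bdp1, Gtf3a, Gtf3c1 to Gtf3c6 and Maf1. The rule found 45 of the 15681 genes of the table, of which 28 are subunits and 17 are factors. All 45 had at least 1 RPM (estimated reads brought to a common depth, which the authors adjusted between libraries) in every library, and all 45 were among the 12441 genes tested. Transcripts were measured by RNA sequencing in mature splenic B cells of mice aged 8 to 10 weeks, activated in culture with 20 µg/ml LPS and 20 ng/ml IL-4 and harvested at 72 h. The groups were Myc knock-out (Myc_KO), Max knock-out (Max_KO), double knock-out (double_KO) and heterozygous control cells, with 2 libraries each. All groups had the same treatment, and the controls are heterozygous, not wild type. The labels name neither the Cre line nor the alleles, do not say which locus is heterozygous in the control, and leave unstated whether a group's 2 libraries are from different mice. The p-values therefore measure only the spread between these libraries.

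RNA polymerase I makes the large ribosomal RNA precursor in the nucleolus. RNA polymerase II makes messenger RNA and many small nuclear RNAs, and RNA polymerase III makes transfer RNAs, 5S ribosomal RNA and other short RNAs. Each enzyme has a pair of large subunits that form its active centre, a small assembly heterodimer, a set of subunits shared by all the enzymes, and a stalk. Myc, which binds DNA with Max at the sequence CACGTG, is known to raise the output of all these polymerases when cells enter growth, as B cells do after LPS.

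Libraries held 14.88 to 17.91 M estimated reads. Myc was at 38.7 to 55.7 RPM in the 4 libraries lacking Myc, 192 and 176 in Max_KO, and 111 and 116 in control. Max was at 28.6 and 70.4 RPM in the libraries labelled Myc_KO, 16.4 and 15.5 in Max_KO, 31.2 and 59.8 in those labelled double_KO, and 55.0 and 54.5 in control. Titles and descriptions disagree on 2 libraries: replicate 1 labelled Myc_KO is titled double knock-out, replicate 2 labelled double_KO is titled Myc knock-out, and Max goes against the label used here in both. Both readings put them among the 4 libraries lacking Myc, so the first comparison below sets the mean of Myc_KO and double_KO against control. The 5 B cell markers summed to 4860 to 5950 RPM in the knock-out libraries and 3540 to 3680 in control. Among them Cd79a and Cd79b lay between 878 and 1220 RPM in all libraries, while Ms4a1 was at 933 to 1380 RPM in the knock-out libraries against 399 and 448 in control, and Pax5 at 979 to 1410 against 375 and 382. The summed level of the 5 T cell markers was 10.4 to 30.4 RPM in the knock-out libraries and 1.99 to 2.18 in control. For the NK markers, 2 of 3 had values, with sums of 1.67 to 10.6 RPM in the knock-out libraries and 0.56 to 0.788 in control, where Ncr1 was at 0. For the myeloid markers, 3 of 4 had values, with sums of 2.24 to 3.95 and 1.63 to 1.64. The 4 plasma cell markers summed to 299 to 764 RPM in the knock-out libraries and 981 to 1050 in control, but they differed. Xbp1 was at 225 to 431 RPM in the knock-out libraries and 680 and 793 in control. Sdc1 was at 8.23 to 16.5 RPM in libraries lacking Myc, 2.94 and 3.02 in Max_KO, and 5.94 and 5.98 in control. Prdm1 was at 65.2 and 69.2 RPM in double_KO, 18.5 to 44.1 in Myc_KO and Max_KO, and 39.0 and 39.1 in control. Jchain was at 137 to 281 RPM in libraries lacking Myc, 35.4 and 37.3 in Max_KO, and 210 and 255 in control. Transcripts of mitochondrial DNA held 2.21% to 2.96% of reads in the knock-out libraries and 4.93% to 5.69% in control. The part of these differences in the results below was not tested. In bulk RNA, fewer cells of a type and less RNA per cell cannot be told apart.

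The polymerase genes did not move as a block. In the libraries lacking Myc, 12 of the 45 were higher and 12 lower than control, and 21 did not pass the threshold of adjusted p under 0.05 (limma, adjusted over all genes tested). These 24 are 53.3% of the members, beside 48.3% of all genes tested (26% higher, 22.3% lower). In Max_KO, 10 were higher and 8 lower, 40% of the members beside 38.1% of all genes (21.5% higher, 16.7% lower). In Myc_KO as labelled, 9 were higher and 11 lower, 44.4% beside 41% (22.3% higher, 18.7% lower), and in double_KO as labelled 11 were higher and 8 lower, 42.2% beside 42.3% (23.4% higher, 19% lower). The share of members called was thus near that of all genes in each comparison. Median log2 changes of the members were -0.06, -0.02, -0.02 and -0.02 in these 4 comparisons, and those of all genes 0.01, 0.02, 0.01 and 0.02. The comparisons share the 2 control libraries. The 8 members higher in all 3 knock-out groups were Polr2a, Polr2b, Polr2g, Polr3a, Polr3b, Polr3f, Ubtf and Bdp1. The 5 lower in all 3 were Polr1c, Polr1d, Polr2c, Polr2f and Gtf3a, 20 were called in none, and 0 were called in opposite directions. These are 17.8%, 11.1% and 44.4% of the members, beside 16.6%, 11.5% and 45.9% of all genes tested, so the shares were again near those of all genes.

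With every library scaled to the same total, which moved the median of all genes up to between 0.13 and 0.16 on the log2 scale, the split was 16 higher and 7 lower in libraries lacking Myc, 12 and 4 in Max_KO, 13 and 6 in Myc_KO, and 14 and 5 in double_KO. Of all genes, 49.5%, 40.5%, 43.1% and 44.5% were called under this scaling, in the same order. Their split by direction is not given here, so the shift of the members to higher calls cannot be set apart from that of all genes. No called member changed sign under any alternative. Here and below, each library was left out alone. Without control replicate 1, or without control replicate 2, the members called were 10 or 14 in libraries lacking Myc (beside 26.5% or 30.2% of all genes), 7 or 10 in Max_KO (18.2% or 22.2%), 7 or 9 in Myc_KO (21.4% or 24.8%), and 10 or 12 in double_KO (22.1% or 25.8%). They were 10 in Max_KO without Max_KO replicate 2 (23.5% of all genes), 12 in Myc_KO without Myc_KO replicate 2 (27.7%) and 12 in double_KO without double_KO replicate 2 (25.4%). The calls over all genes thus fell too when these libraries were left out. With groups from the titles, 27 members were called in libraries lacking Myc, 20 in Max_KO, 24 in Myc_KO and 19 in double_KO, beside 48.7%, 39.8%, 45.5% and 38.7% of all genes. With the 6 undisputed libraries, these counts were 21, 18, 14 and 13, beside 42.2%, 40.2%, 35.7% and 28.9%. Of the members called, 10 of 24 in libraries lacking Myc and 7 of 18 in Max_KO passed under every alternative run. These were Polr1d, Polr2a, Polr2b, Polr2g, Polr3b, Bdp1 and Gtf3a in both, with Polr2f, Polr3a and Polr3f in libraries lacking Myc. The same count was not made over all genes, so whether these shares are usual for called genes is not known.

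The sample titles carry numbers. The libraries numbered 40 or more are both of double_KO and Max_KO replicate 2, and the controls are below. The labels do not say what the numbers mark. With this number series as a term, chosen after seeing the data, 13 members were called in libraries lacking Myc, 10 in Max_KO, 20 in Myc_KO and 0 in double_KO by limma, beside 29.9%, 23.5%, 41.7% and 2.68% of all genes. At an unadjusted p under 0.05 there were 10 members in double_KO, and all genes were not counted at that level. That fit used the groups as labelled, in which the series and double_KO are told apart only through the 2 Max_KO libraries. By the titles, each knock-out group has a library below 40 and another numbered 40 or more. The term was not run with the groups from the titles, so these counts hold for the labels only. In libraries lacking Myc, the term ended the calls of Polr1c, Polr2c, Polr2d, Polr2h, Polr2j, Polr3d, Ubtf, Rrn3, Taf1b, Taf1c and Gtf3c3, and of Twistnb, Znrd1, Ruvbl2, Snapc2 and Tfb2m named below. In Max_KO it ended those of Polr1c, Polr2c, Polr2f, Polr3a, Polr3d, Polr3f, Taf1b, Taf1c, Twistnb and Tfb2m. These losses come on top of those named gene by gene below.

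**Figure D1:**
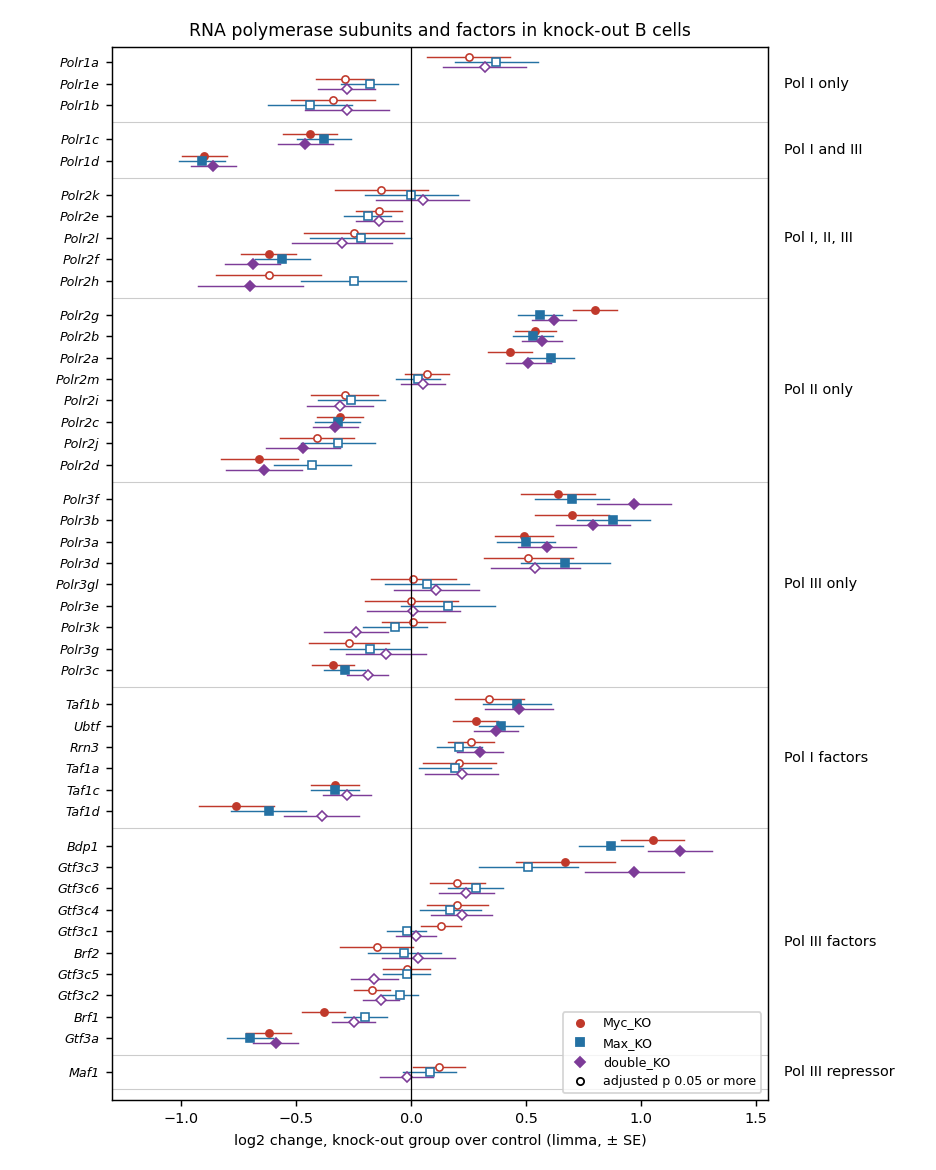
Log2 change over control of 44 of the 45 members in the groups labelled Myc_KO, Max_KO and double_KO, with the genes in rows grouped by role; points are limma estimates, bars are SE, and filled points have an adjusted p under 0.05. Polr1d lies furthest to the left at -0.9, -0.91 and -0.86, Bdp1 is at 1.05, 0.87 and 1.17, and genes higher and lower than control stand side by side within polymerase II and polymerase III.

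The changes went with gene length, in the members as in all genes. Across genes, the Spearman correlation of the log2 change with the summed exon length was 0.33 over the 45 members and 0.31 over 12413 genes in libraries lacking Myc, and 0.31 and 0.31 in Max_KO. These are descriptions, since genes of the same libraries are not independent replicates. In libraries lacking Myc, the median exon length was 5.09 kb for the members called higher, 2.82 kb for those called lower and 3.21 kb for the rest, beside 6.24, 3.17 and 3.99 kb for all genes. Bdp1, of 11.01 kb, and Polr3f, of 7.71 kb, were higher than control. Polr2d, of 1.01 kb, and Polr2f, of 2.60 kb, were lower. Polr2g, of 1.25 kb, went the other way and was among the highest members. Taf1d, of 8.95 kb, was lower. The part of length in the members' changes was not tested.

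**Figure D2:**
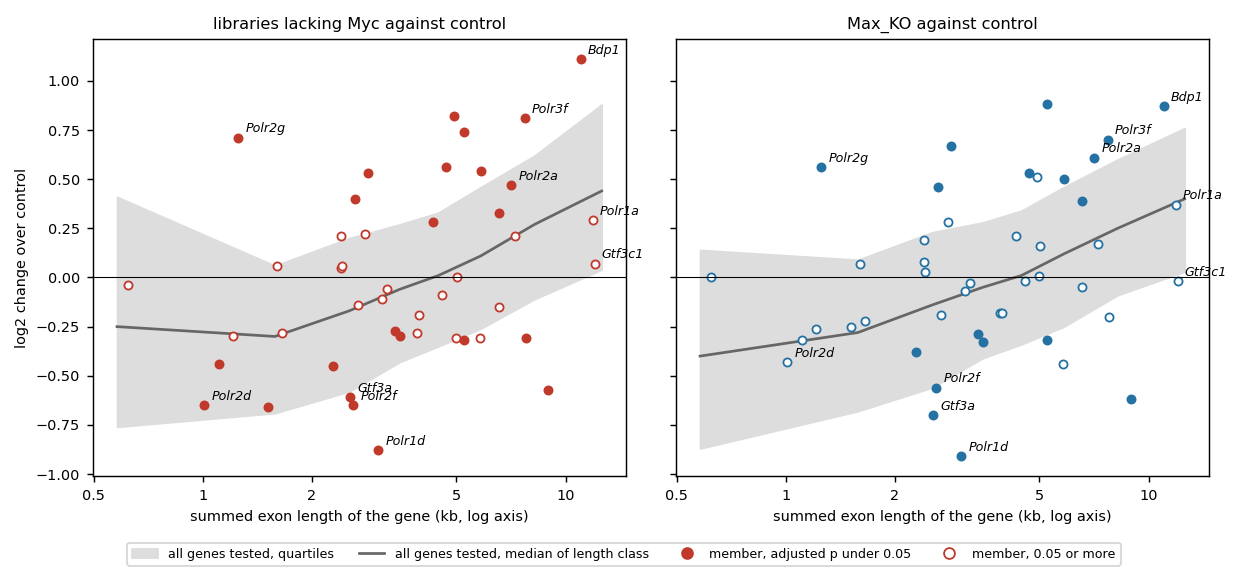
Log2 change over control against summed exon length (kb, log axis) for the 45 members, in libraries lacking Myc (left) and in Max_KO (right); the line and band are the median and quartiles of all genes tested by length class. The short gene Polr2g lies above the band and Polr1d below it, while Bdp1 and Polr3f sit high among the long genes.

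The promoters of members that changed are shown next, because Myc and Max bind CACGTG. RefSeq windows on GRCm38.p6, from 250 bases before to 50 after each annotated start, were found for 36 of the 45 members. CACGTG, which reads the same on both strands, was in the window of 6 of the 36 genes (16.7%). In the whole RefSeq table it was in that of 2187 of 27025 genes (8.09%). That table was not limited to the genes tested here, so the shares are of unlike sets. Of the members in libraries lacking Myc, 1 of 9 higher, 2 of 10 lower and 3 of 17 not past the threshold held it. The 3 called members that hold it are printed 5′ to 3′, with CACGTG in capitals.
Polr2h, chr16:20717576-20717875 (plus strand): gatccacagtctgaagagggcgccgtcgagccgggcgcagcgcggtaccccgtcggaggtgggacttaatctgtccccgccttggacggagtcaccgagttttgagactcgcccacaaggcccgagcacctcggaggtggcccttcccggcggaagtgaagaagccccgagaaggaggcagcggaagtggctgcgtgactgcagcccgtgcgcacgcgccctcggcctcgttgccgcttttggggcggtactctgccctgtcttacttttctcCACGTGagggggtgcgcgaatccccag
Polr3c, chr3:96727390-96727689 (minus strand): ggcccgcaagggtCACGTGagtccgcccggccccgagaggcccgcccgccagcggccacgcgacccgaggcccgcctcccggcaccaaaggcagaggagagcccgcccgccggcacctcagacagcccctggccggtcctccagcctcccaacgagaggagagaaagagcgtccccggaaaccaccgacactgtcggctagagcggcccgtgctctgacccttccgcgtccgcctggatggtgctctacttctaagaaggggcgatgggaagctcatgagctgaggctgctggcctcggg
Rrn3, chr16:13780449-13780748 (plus strand): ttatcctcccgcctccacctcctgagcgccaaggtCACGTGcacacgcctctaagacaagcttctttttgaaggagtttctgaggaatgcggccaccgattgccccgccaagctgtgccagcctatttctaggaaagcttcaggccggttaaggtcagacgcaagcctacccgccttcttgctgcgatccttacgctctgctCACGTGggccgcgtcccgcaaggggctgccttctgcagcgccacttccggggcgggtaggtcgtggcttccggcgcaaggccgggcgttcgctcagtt
Counting the annotated start of the printed window as 0, the motif begins 23 bases after it in Polr2h, 237 bases before it in Polr3c, and both 215 and 48 bases before it in Rrn3. The window of another annotated start of Polr2h, chr16:20717927-20718226, does not hold CACGTG. Polr3e, Polr3gl and Gtf3c6 hold it too and were not past the threshold. A match of letters does not show that a factor binds there.

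Within RNA polymerase II, the catalytic pair rose in cells lacking Myc or Max. Polr2a (ENSMUSG00000005198, GRCm38 chromosome 11, 69733997 to 69758637, minus strand) encodes the largest subunit, whose repeated C-terminal tail coordinates RNA processing. Polr2a was at 466 and 428 RPM in the libraries labelled Myc_KO, 491 and 524 in Max_KO, 503 and 443 in those labelled double_KO, and 332 and 331 in control. All 6 knock-out libraries lay above both controls. Polr2a rose, with a log2 change of 0.47 ± 0.084 (SE) in libraries lacking Myc and 0.61 ± 0.097 in Max_KO (limma adjusted p = 0.00264 and 0.00235). Polr2b (ENSMUSG00000029250, GRCm38 chromosome 5, 77310147 to 77349324, plus strand) encodes the other large subunit of the active centre. Polr2b was at 140 and 142 RPM in the libraries labelled Myc_KO, 140 and 140 in Max_KO, 149 and 139 in those labelled double_KO, and 102 and 91.7 in control. The control libraries were again the lowest. Polr2b rose, with a log2 change of 0.56 ± 0.076 (SE) in libraries lacking Myc and 0.53 ± 0.088 in Max_KO (limma adjusted p = 0.000758 and 0.00285). The ratio of Polr2a to Polr2b within a library was 3.01 to 3.74 in the knock-out libraries and 3.25 to 3.61 in control, which overlap.

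The stalk of polymerase II, formed by Polr2g (RPB7) and Polr2d (RPB4), was split. Polr2g (ENSMUSG00000071662, GRCm38 chromosome 19, 8793127 to 8798577, minus strand) was higher in every knock-out library. Polr2g was at 106 and 97.6 RPM in the libraries labelled Myc_KO, 82.1 and 90.3 in Max_KO, 89.6 and 90.4 in those labelled double_KO, and 61 and 56.2 in control. Polr2g rose, with a log2 change of 0.71 ± 0.083 (SE) in libraries lacking Myc and 0.56 ± 0.096 in Max_KO (limma adjusted p = 0.000393 and 0.00332). Its partner went the other way. Polr2d was at 37.3 and 29.3 RPM in the libraries labelled Myc_KO, 43.1 and 35.1 in Max_KO, 37.5 and 30 in those labelled double_KO, and 53.3 and 51.2 in control. All 6 knock-out values were below both controls. Polr2d fell in libraries lacking Myc, with a log2 change of -0.65 ± 0.145 (SE, limma adjusted p = 0.00704), and was at -0.43 ± 0.167 (SE, limma adjusted p = 0.0755) in Max_KO. The first call was lost without control replicate 1, with adjusted p from 0.000926 to 0.07 over the alternatives. The ratio of Polr2g to Polr2d was 2.84 and 3.33 in the libraries labelled Myc_KO, 1.9 and 2.57 in Max_KO, 2.39 and 3.01 in those labelled double_KO, and 1.14 and 1.1 in control. These ratios were chosen after the values of the genes were known and carry no test.

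The assembly heterodimer of polymerase II, Polr2c (RPB3) with Polr2j (RPB11), was lower in libraries lacking Myc. Polr2c was at 52.6 and 47.8 RPM in the libraries labelled Myc_KO, 52.1 and 47.7 in Max_KO, 50 and 49 in those labelled double_KO, and 63.3 and 60.9 in control. Polr2c fell, with a log2 change of -0.32 ± 0.086 (SE) in libraries lacking Myc and -0.32 ± 0.099 in Max_KO (limma adjusted p = 0.0165 and 0.0365). Polr2j was at 35.2 and 35.3 RPM in the libraries labelled Myc_KO, 43 and 33.2 in Max_KO, 37.7 and 30.6 in those labelled double_KO, and 50.9 and 43.5 in control. Polr2j fell in libraries lacking Myc, with a log2 change of -0.44 ± 0.14 (SE, limma adjusted p = 0.0303), and was at -0.32 ± 0.161 (SE, limma adjusted p = 0.152) in Max_KO. The calls of Polr2c and Polr2j were lost without either control library and with same-total scaling, with adjusted p up to 0.128 and 0.24 in libraries lacking Myc. The Polr2c call in Max_KO was also lost without Max_KO replicate 2 or either double_KO library, and that of Polr2j without either Myc_KO library or double_KO replicate 2 and with the 6 undisputed libraries. Exons of genes on the opposite strand cover 18.1% of Polr2c (Dok4) and 15.9% of Polr2j (Lrwd1), and the strand setting of the counting is not given in the sources used here. Polr2i (RPB9), which takes part in cleavage of backtracked RNA, lay at 13.8 to 15 RPM in the 6 knock-out libraries and 16.4 and 19.4 in control. It did not pass the threshold in any comparison with control. Polr2m (Gdown1), which makes polymerase II depend on Mediator, was at 163 to 190 RPM in the 6 knock-out libraries and 167 and 169 in control, so its groups overlapped. Of the 8 genes particular to polymerase II, 3 were higher and 3 lower in libraries lacking Myc, and 3 were higher and 1 lower in Max_KO. The shares called were 75% and 50%, beside 48.3% and 38.1% of all genes.

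**Figure D3:**
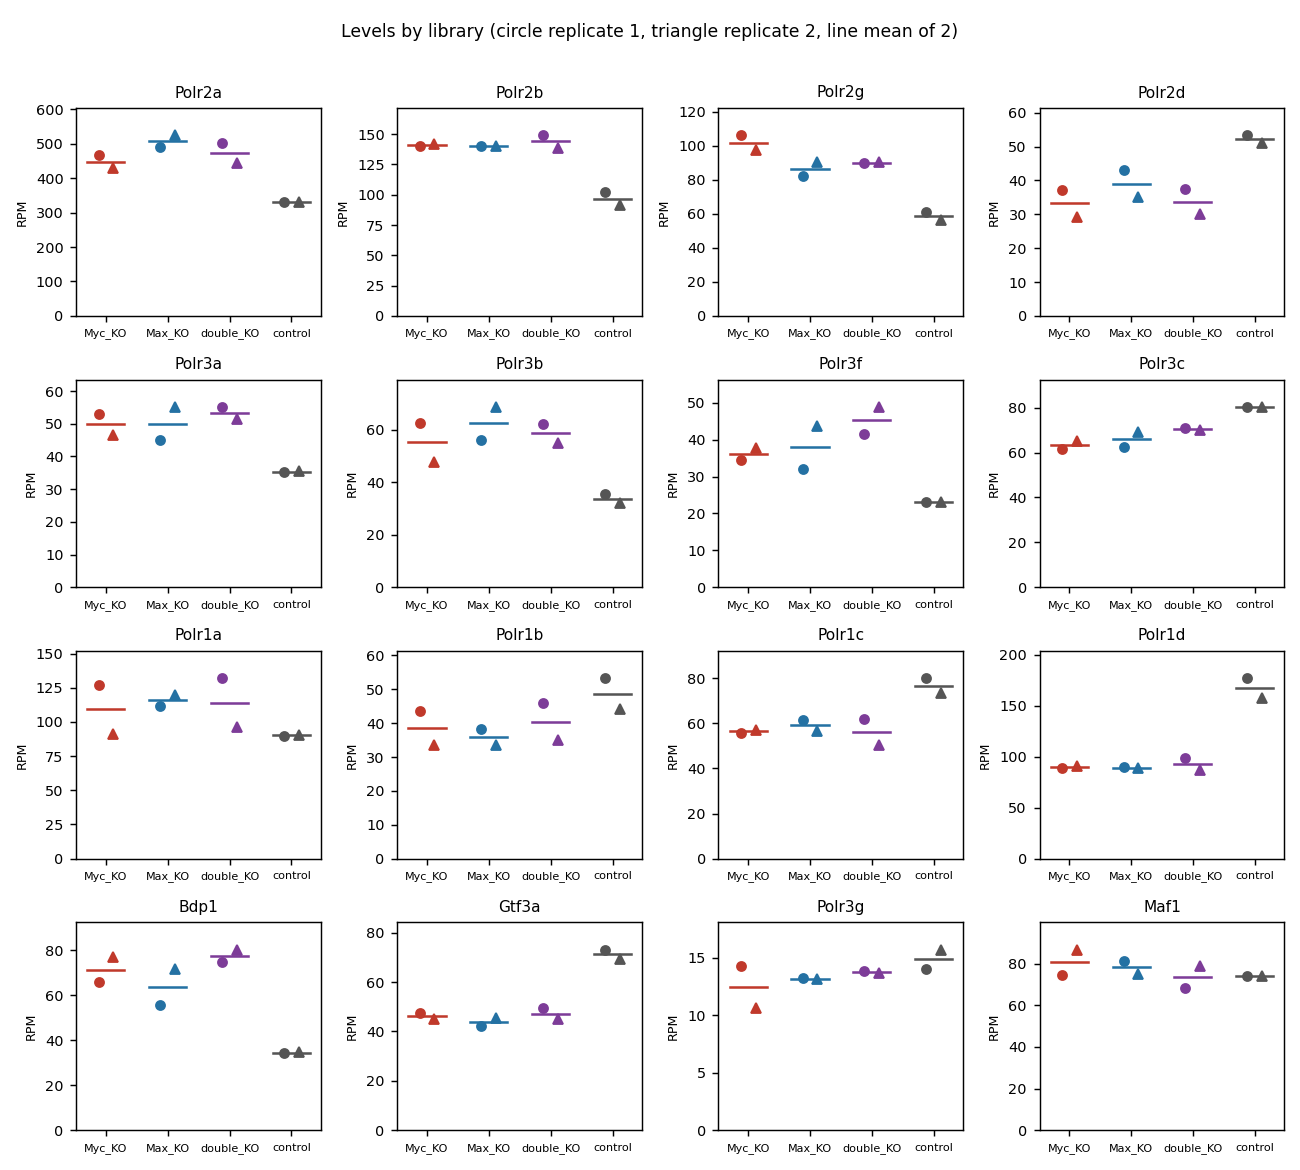
Level in each library (RPM) of the members on which the results turn, with circles for replicate 1, triangles for replicate 2 and lines for group means; groups run Myc_KO, Max_KO, double_KO and control. Polr2a and Polr2g are higher than control in all 6 knock-out libraries, while Polr1d and Polr2d are lower in all 6.

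Of the 5 subunits shared by the 3 enzymes, the 2 called in libraries lacking Myc were both lower. The shares called were 40% there and 20% in Max_KO, beside 48.3% and 38.1% of all genes. Polr2f (ENSMUSG00000033020, GRCm38 chromosome 15, 79141009 to 79151774, plus strand) encodes RPB6, which sits at the base of the stalk. Polr2f was at 40.4 and 37.5 RPM in the libraries labelled Myc_KO, 43.8 and 37.7 in Max_KO, 39.5 and 34.9 in those labelled double_KO, and 62.3 and 57.4 in control. The knock-out libraries did not overlap the controls. Polr2f fell, with a log2 change of -0.65 ± 0.104 (SE) in libraries lacking Myc and -0.56 ± 0.121 in Max_KO (limma adjusted p = 0.00156 and 0.00849). The Max_KO call was lost without Max_KO replicate 2 and without control replicate 1 (adjusted p 0.00237 to 0.0732 over the alternatives). Polr2h (RPB8), whose promoter is printed above, also fell in libraries lacking Myc. Polr2h was at 25.4 and 18 RPM in the libraries labelled Myc_KO, 30.4 and 25.1 in Max_KO, 24.6 and 16.6 in those labelled double_KO, and 34.9 and 30.9 in control. Its log2 change was -0.66 ± 0.199 (SE, limma adjusted p = 0.0257) in libraries lacking Myc and -0.25 ± 0.229 (SE, limma adjusted p = 0.425) in Max_KO. The first call was lost without either control library, Myc_KO replicate 2 or double_KO replicate 2, with adjusted p from 0.00235 to 0.17. Polr2e (RPB5) was at 75.9 to 86.8 RPM in the 6 knock-out libraries and 84.4 and 95.3 in control. Polr2k (RPB12) lay at 14.8 to 22.7 RPM in the 6 knock-out libraries and 19.9 and 20 in control, and Polr2l (RPB10) at 13.4 to 20.6 RPM in the 6 knock-out libraries and 18 and 23.3 in control. These 3 did not pass the threshold in any comparison with control.

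Polr1c and Polr1d form the assembly heterodimer of polymerases I and III, the counterpart of Polr2c and Polr2j, and both were lower. Of all genes, 22.3% were called lower in libraries lacking Myc and 16.7% in Max_KO. Polr1d (ENSMUSG00000029642, GRCm38 chromosome 5, 147077050 to 147111597, plus strand) had the lowest log2 change of the 45 members in each knock-out group. Polr1d was at 88.9 and 90.4 RPM in the libraries labelled Myc_KO, 89.6 and 88.6 in Max_KO, 98.8 and 86.7 in those labelled double_KO, and 177 and 158 in control. Every knock-out library was well below both controls. Polr1d fell, with a log2 change of -0.88 ± 0.086 (SE) in libraries lacking Myc and -0.91 ± 0.099 in Max_KO (limma adjusted p = 0.000189 and 0.000604). Polr1c was at 55.9 and 57.2 RPM in the libraries labelled Myc_KO, 61.3 and 56.8 in Max_KO, 61.9 and 50.5 in those labelled double_KO, and 80 and 73.3 in control. Polr1c fell, with a log2 change of -0.45 ± 0.103 (SE) in libraries lacking Myc and -0.38 ± 0.118 in Max_KO (limma adjusted p = 0.00813 and 0.0369). The Polr1c call was lost without control replicate 1 in libraries lacking Myc (adjusted p 0.00353 to 0.0886 over the alternatives). In Max_KO it was lost without any of Max_KO replicates 1 and 2 and control replicates 1 and 2, and with same-total scaling (adjusted p 0.0155 to 0.2). The ratio of Polr1c to Polr1d was 0.582 to 0.684 in the knock-out libraries and 0.452 to 0.464 in control, with no overlap.

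Of the members particular to polymerase I, 0 of 3 passed the threshold in any comparison of the groups as labelled with control by limma. Of all genes, 48.3% passed in libraries lacking Myc, 38.1% in Max_KO, 41% in Myc_KO and 42.3% in double_KO. At an unadjusted p under 0.05 there was 1 in libraries lacking Myc, 1 in Max_KO, 1 in Myc_KO and 0 in double_KO. Of the 12441 genes tested, 6903, 6001, 6302 and 6376 were under it, in the same order. With groups from the titles, the fit called all 3 in libraries lacking Myc: Polr1a at a log2 change of 0.29, Polr1b at -0.31 and Polr1e at -0.28 (limma adjusted p = 0.00954, 0.0428 and 0.0438, with 0.00954 to 0.425, 0.0185 to 0.571 and 0.0297 to 0.326 over all alternatives). Of all genes, 48.7% were called in that comparison with these groups. A set of 3 genes is too small to set against such shares. Polr1a (ENSMUSG00000049553, GRCm38 chromosome 6, 71909053 to 71984935, plus strand) encodes the largest subunit. Polr1a was at 127 and 91.3 RPM in the libraries labelled Myc_KO, 112 and 120 in Max_KO, 132 and 96.3 in those labelled double_KO, and 89.6 and 90.7 in control. The higher values among the libraries lacking Myc, 127 and 132, are both titled double knock-out, and the lower ones, 91.3 and 96.3, are both titled Myc knock-out. As labelled, its log2 change was 0.29 ± 0.156 (SE, limma adjusted p = 0.16) in libraries lacking Myc and 0.37 ± 0.181 (SE, limma adjusted p = 0.142) in Max_KO. With groups from the titles it was 0.52 in double_KO (limma adjusted p = 0.00179), 0.37 in Max_KO (0.00805) and 0.06 in Myc_KO (0.593). Over all alternatives the adjusted p ran from 0.00179 to 0.723 in double_KO, 0.00805 to 0.355 in Max_KO and 0.077 to 0.946 in Myc_KO. Between double_KO and Myc_KO by titles, the log2 change was 0.46 (limma adjusted p = 0.0592), which missed the threshold. Polr1b was at 43.5 and 33.6 RPM in the libraries labelled Myc_KO, 38.2 and 33.6 in Max_KO, 45.9 and 35 in those labelled double_KO, and 53.3 and 44.1 in control. Polr1b is the other large subunit of polymerase I. With groups from the titles its log2 change was -0.12 in double_KO (limma adjusted p = 0.485), -0.44 in Max_KO (0.0238) and -0.5 in Myc_KO (0.0119), and over all alternatives adjusted p ran from 0.0528 to 0.897, 0.0099 to 0.382 and 0.0119 to 0.596. The ratio of Polr1a to Polr1b was 2.72 to 3.57 in the knock-out libraries and 1.68 to 2.06 in control.

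Polr1e (PAF53), which helps to recruit polymerase I to ribosomal DNA, lay at 22.8 to 26.8 RPM in the 6 knock-out libraries and 28 and 30.9 in control. GENCODE vM21, the annotation used here for symbols, gives the other polymerase I subunits older symbols, outside the naming rule. Of these 3, 66.7% were called both in libraries lacking Myc and in Max_KO, beside 48.3% and 38.1% of all genes. Twistnb, the stalk subunit RPA43, rose, with a log2 change of 0.38 ± 0.134 (SE, limma adjusted p = 0.0471) in libraries lacking Myc and 0.51 ± 0.155 (SE, limma adjusted p = 0.0318) in Max_KO. Znrd1, the cleavage subunit RPA12, fell, at -0.37 ± 0.1 (SE, limma adjusted p = 0.0155) and -0.53 ± 0.115 (SE, limma adjusted p = 0.00886). In libraries lacking Myc, the Twistnb call was lost without any 1 of the 4 libraries lacking Myc or either control library, with groups from the titles, the 6 undisputed libraries, no filter, quantile normalization or voom weights (adjusted p up to 0.358). In Max_KO it was lost without Max_KO replicate 2 or either control library (up to 0.179). The Znrd1 call was lost without control replicate 1 in both comparisons, and in libraries lacking Myc also without control replicate 2 and with same-total scaling (up to 0.113). Cd3eap, the partner of Polr1e, did not pass, at -0.55 ± 0.348 (SE, limma adjusted p = 0.222) and -0.1 ± 0.402 (SE, limma adjusted p = 0.861). In libraries lacking Myc, 1 of 20 alternatives called it. Cd3eap was at 26.8 and 14.3 RPM in the libraries labelled Myc_KO, 32.9 and 18.1 in Max_KO, 22.4 and 11.9 in those labelled double_KO, and 28.4 and 24.1 in control. As labelled, it thus varied within each knock-out group. The values 26.8 and 22.4 are both of libraries titled double knock-out, and 14.3 and 11.9 both of libraries titled Myc knock-out.

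RNA polymerase III showed a rise of its catalytic pair. Polr3a (ENSMUSG00000025280, GRCm38 chromosome 14, 24448696 to 24487058, minus strand) encodes the largest subunit. Polr3a was at 53.1 and 46.6 RPM in the libraries labelled Myc_KO, 44.9 and 55.2 in Max_KO, 55.1 and 51.6 in those labelled double_KO, and 35.2 and 35.5 in control. Polr3a rose, with a log2 change of 0.54 ± 0.11 (SE) in libraries lacking Myc and 0.5 ± 0.127 in Max_KO (limma adjusted p = 0.00449 and 0.0166). Polr3b (ENSMUSG00000034453, GRCm38 chromosome 10, 84622292 to 84727178, plus strand) encodes its partner in the active centre. Polr3b was at 62.8 and 47.8 RPM in the libraries labelled Myc_KO, 56.1 and 68.8 in Max_KO, 62.3 and 55.1 in those labelled double_KO, and 35.5 and 32.1 in control. For both genes all 6 knock-out libraries lay above both controls. Polr3b rose, with a log2 change of 0.74 ± 0.138 (SE) in libraries lacking Myc and 0.88 ± 0.16 in Max_KO (limma adjusted p = 0.00308 and 0.00412). The Polr3a call in Max_KO was lost without Max_KO replicate 2 or either control library (adjusted p 0.0072 to 0.095 over the alternatives). Polr3d (RPC4), which forms a pair with Polr3e (RPC5) resembling the polymerase II factor TFIIF, also rose. Polr3d was at 28.4 and 23 RPM in the libraries labelled Myc_KO, 26 and 31.2 in Max_KO, 30.8 and 22 in those labelled double_KO, and 19 and 16.9 in control. Polr3d rose, with a log2 change of 0.53 ± 0.168 (SE) in libraries lacking Myc and 0.67 ± 0.194 in Max_KO (limma adjusted p = 0.0317 and 0.027). The Polr3d call was lost without either control library in both comparisons, without Myc_KO replicate 1 or double_KO replicate 1 in libraries lacking Myc, and without Max_KO replicate 2 in Max_KO, with adjusted p up to 0.201 and 0.142. Polr3e lay at 35.9 to 50.2 RPM in the 6 knock-out libraries and 38.9 and 46.4 in control, with overlapping groups.

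The initiation subcomplex of polymerase III, in which Polr3c (RPC3), Polr3f (RPC6) and either Polr3g or Polr3gl (RPC7) open the promoter, was divided. Polr3f (ENSMUSG00000027427, GRCm38 chromosome 2, 144527718 to 144541995, plus strand) was higher in all 6 knock-out libraries. Polr3f was at 34.4 and 37.7 RPM in the libraries labelled Myc_KO, 32.1 and 43.8 in Max_KO, 41.6 and 48.9 in those labelled double_KO, and 23 and 23.1 in control. Polr3f rose, with a log2 change of 0.81 ± 0.14 (SE) in libraries lacking Myc and 0.7 ± 0.161 in Max_KO (limma adjusted p = 0.00225 and 0.0108). The Max_KO call was lost without Max_KO replicate 2 or either control library (adjusted p 0.00358 to 0.0646). Polr3c was at 61.6 and 65 RPM in the libraries labelled Myc_KO, 62.5 and 69.2 in Max_KO, 71 and 70 in those labelled double_KO, and 80.4 and 80.2 in control. The knock-out libraries all lay below control by a small margin. Polr3c fell, with a log2 change of -0.27 ± 0.079 (SE) in libraries lacking Myc and -0.29 ± 0.091 in Max_KO (limma adjusted p = 0.0244 and 0.0376). The Polr3c calls, of both comparisons, were lost without either control library, with same-total scaling and with the 6 undisputed libraries. They were also lost without Myc_KO replicate 1 or double_KO replicate 2 in libraries lacking Myc, and without Max_KO replicate 1 or either double_KO library, with groups from the titles and with the compared groups alone in Max_KO. Adjusted p reached 0.208 and 0.155 over the alternatives. The ratio of Polr3f to Polr3c was 0.514 to 0.699 in the knock-out libraries and 0.286 to 0.288 in control.

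Polr3g and Polr3gl encode alternative forms of RPC7. Polr3g is known from stem cells and proliferating cells, and Polr3gl is the form found in most tissues. Polr3g was at 14.3 and 10.6 RPM in the libraries labelled Myc_KO, 13.2 and 13.1 in Max_KO, 13.8 and 13.7 in those labelled double_KO, and 14 and 15.7 in control. Polr3gl was at 13.9 and 14.3 RPM in the libraries labelled Myc_KO, 14.1 and 15.4 in Max_KO, 13.2 and 17.2 in those labelled double_KO, and 12.4 and 15.6 in control. Both genes overlapped between knock-out and control libraries. The log2 change of Polr3g was -0.19 ± 0.151 (SE, limma adjusted p = 0.331) in libraries lacking Myc and -0.18 ± 0.174 (SE, limma adjusted p = 0.45) in Max_KO. That of Polr3gl was 0.06 ± 0.158 (SE, limma adjusted p = 0.773) and 0.07 ± 0.183 (SE, limma adjusted p = 0.775). Per exon length, Polr3g averaged 3.16 RPM per kb in Myc_KO, 3.33 in Max_KO, 3.49 in double_KO and 3.77 in control, and Polr3gl 8.8, 9.19, 9.49 and 8.78. Polr3gl was thus the higher of the pair in each group on this scale. The ratio of Polr3g to Polr3gl in RPM was 0.741 to 1.05 in the knock-out libraries and 1.01 to 1.13 in control.

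**Figure D4:**
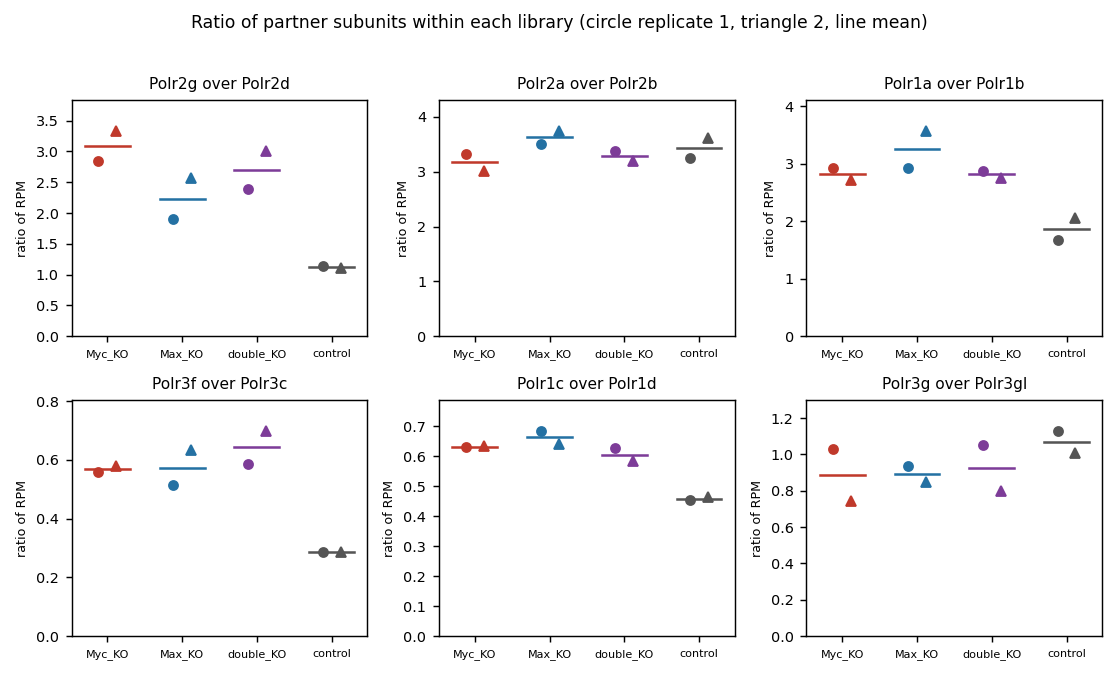
Ratio of the RPM of partner subunits within each library (circle replicate 1, triangle replicate 2, line the group mean). Polr2g over Polr2d, Polr3f over Polr3c, Polr1a over Polr1b and Polr1c over Polr1d are higher in all 6 knock-out libraries than in both controls, while Polr2a over Polr2b and Polr3g over Polr3gl overlap.

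Crcp (RPC9), a stalk subunit of polymerase III listed under another symbol, lay at 25.1 to 29.7 RPM in the knock-out libraries and 29.8 and 26.7 in control. Polr3k, the small subunit that cleaves RNA at termination, was at 29.8 to 39.1 RPM in the 6 knock-out libraries and 35.5 and 36.7 in control. Of the 10 genes particular to polymerase III, 4 were higher and 1 lower both in libraries lacking Myc and in Max_KO. That is 50% in each, beside 48.3% and 38.1% of all genes.

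The factors of polymerase I moved in both directions. Ubtf (UBF) is the architectural factor of active ribosomal DNA. Ubtf was at 308 and 293 RPM in the libraries labelled Myc_KO, 330 and 318 in Max_KO, 297 and 345 in those labelled double_KO, and 242 and 252 in control. Ubtf rose, with a log2 change of 0.33 ± 0.083 (SE) in libraries lacking Myc and 0.39 ± 0.096 in Max_KO (limma adjusted p = 0.0124 and 0.014). The calls of Ubtf were lost without either control library in both comparisons, and without Max_KO replicate 1 in Max_KO (adjusted p up to 0.106 and 0.0962). Rrn3 (TIF-IA) makes polymerase I competent to initiate, and its promoter with a pair of CACGTG motifs is printed above. Rrn3 was at 75.8 and 67.4 RPM in the libraries labelled Myc_KO, 69.3 and 68.6 in Max_KO, 74 and 73 in those labelled double_KO, and 62.9 and 56.9 in control. All knock-out libraries were above both controls. Its log2 change was 0.28 ± 0.085 (SE, limma adjusted p = 0.0283) in libraries lacking Myc and 0.21 ± 0.099 (SE, limma adjusted p = 0.134) in Max_KO. The first call was lost without either control library, Myc_KO replicate 1 or either double_KO library, with the 6 undisputed libraries and with quantile normalization (adjusted p 0.00351 to 0.215).

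Taf1a to Taf1d, with Tbp, form SL1, which selects the ribosomal DNA promoter. Taf1b was at 22 and 26 RPM in the libraries labelled Myc_KO, 23.5 and 28.9 in Max_KO, 26.1 and 26.2 in those labelled double_KO, and 19.9 and 17.9 in control. Taf1b rose, with a log2 change of 0.4 ± 0.129 (SE) in libraries lacking Myc and 0.46 ± 0.149 in Max_KO (limma adjusted p = 0.0324 and 0.04). Taf1c was at 33.6 and 30.9 RPM in the libraries labelled Myc_KO, 32.9 and 31.5 in Max_KO, 32.2 and 34.1 in those labelled double_KO, and 41 and 39.8 in control. Taf1c fell, with a log2 change of -0.3 ± 0.091 (SE) in libraries lacking Myc and -0.33 ± 0.105 in Max_KO (limma adjusted p = 0.0246 and 0.0398). Taf1d was at 34.4 and 36.1 RPM in the libraries labelled Myc_KO, 34.6 and 43.2 in Max_KO, 50.2 and 41.2 in those labelled double_KO, and 67 and 53 in control. Taf1d fell, with a log2 change of -0.57 ± 0.142 (SE) in libraries lacking Myc and -0.62 ± 0.164 in Max_KO (limma adjusted p = 0.0111 and 0.0185). Taf1b and Taf1c lost their calls without either control library in both comparisons. Taf1b also lost it with the 6 undisputed libraries in both, with quantile normalization in Max_KO, without Myc_KO replicate 2 or either double_KO library in libraries lacking Myc, and without Max_KO replicate 2 or either double_KO library in Max_KO. Taf1c also lost it with same-total scaling in both, with the 6 undisputed libraries in Max_KO, without Myc_KO replicate 2 or double_KO replicate 1, and in Max_KO without any of the Max_KO or double_KO libraries. Taf1d lost it without control replicate 1 in both comparisons and without Max_KO replicate 1 in Max_KO. Adjusted p reached 0.228, 0.155 and 0.129 in libraries lacking Myc. Taf1d hosts small nucleolar RNAs, and other annotated genes cover 15.0% of its exons. Taf1a was at 12.6 to 15.7 RPM in the 6 knock-out libraries and 11.9 and 12.5 in control and did not pass the threshold. Of the 6 factors, 3 were higher and 2 lower in libraries lacking Myc, and 2 and 2 in Max_KO. The shares called were 83.3% and 66.7%, beside 48.3% and 38.1% of all genes.

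TFIIIB places polymerase III at its promoters and consists of Tbp, Bdp1 and Brf1 or Brf2. Bdp1 (ENSMUSG00000049658, GRCm38 chromosome 13, 100017994 to 100104070, minus strand) had the highest log2 change of the members in libraries lacking Myc. Bdp1 was at 65.7 and 76.8 RPM in the libraries labelled Myc_KO, 55.7 and 71.6 in Max_KO, 74.7 and 80.3 in those labelled double_KO, and 34.2 and 34.6 in control. The lowest knock-out library, at 55.7, was above both controls. Bdp1 rose, with a log2 change of 1.11 ± 0.119 (SE) in libraries lacking Myc and 0.87 ± 0.138 in Max_KO (limma adjusted p = 0.000276 and 0.00228). Brf1 was at 47.8 and 49.3 RPM in the libraries labelled Myc_KO, 53.2 and 56.6 in Max_KO, 52.3 and 53.6 in those labelled double_KO, and 65.2 and 61 in control. Brf1 fell in libraries lacking Myc, with a log2 change of -0.31 ± 0.08 (SE, limma adjusted p = 0.0127), and was at -0.2 ± 0.093 (SE, limma adjusted p = 0.124) in Max_KO. The Brf1 call was lost without either control library and with same-total scaling (adjusted p 0.00358 to 0.126). The ratio of Bdp1 to Brf1 was 1.05 to 1.56 in the knock-out libraries and 0.525 to 0.567 in control. Brf2, which serves the promoters of U6 and similar genes, lay at 11 to 13.3 RPM in the 6 knock-out libraries and 12.2 and 12.3 in control.

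TFIIIA and TFIIIC bind inside polymerase III genes. Gtf3a (ENSMUSG00000016503, GRCm38 chromosome 5, 146948657 to 146955614, plus strand) encodes TFIIIA, which recruits the enzyme to 5S ribosomal RNA genes. Gtf3a was at 47.3 and 45.1 RPM in the libraries labelled Myc_KO, 42.3 and 45.4 in Max_KO, 49.4 and 45.1 in those labelled double_KO, and 73.2 and 69.4 in control. The 6 knock-out libraries lay below both controls. Gtf3a fell, with a log2 change of -0.61 ± 0.086 (SE) in libraries lacking Myc and -0.7 ± 0.099 in Max_KO (limma adjusted p = 0.000868 and 0.00156). Exons of Mtif3 on the opposite strand cover 59.1% of Gtf3a, so reads of these genes cannot be told apart without strand. Mtif3 itself did not pass the threshold, with log2 changes of -0.1 in libraries lacking Myc and -0.07 in Max_KO. Of the 6 TFIIIC genes, only Gtf3c3 was called in libraries lacking Myc, where 48.3% of all genes were. Gtf3c3 was at 23.9 and 25.3 RPM in the libraries labelled Myc_KO, 18.8 and 26 in Max_KO, 30.5 and 30.1 in those labelled double_KO, and 12.6 and 19 in control. Gtf3c3 rose in libraries lacking Myc, with a log2 change of 0.82 ± 0.187 (SE, limma adjusted p = 0.00808), and was at 0.51 ± 0.216 (SE, limma adjusted p = 0.0944) in Max_KO. That call was lost without control replicate 1 (adjusted p 0.00269 to 0.089). Gtf3c1 lay at 119 to 136 RPM in the 6 knock-out libraries and 118 and 128 in control, Gtf3c2 at 148 to 164 RPM in the 6 knock-out libraries and 167 and 171 in control and Gtf3c4 at 30.4 to 35.8 RPM in the 6 knock-out libraries and 27.2 and 30.1 in control. Gtf3c5 was at 37.1 to 44.9 RPM in the 6 knock-out libraries and 43.6 and 44.4 in control, and Gtf3c6 at 23.2 to 26.1 RPM in the 6 knock-out libraries and 20.9 and 21.7 in control. For Gtf3c2, 38.9% of the exons are shared with Gm29609 on the same strand, so its level is uncertain. Of the 10 polymerase III factors, 2 were higher and 2 lower in libraries lacking Myc, and 1 and 1 in Max_KO. The shares called were 40% and 20%, beside 48.3% and 38.1% of all genes.

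Maf1 is the repressor that holds polymerase III off its genes when nutrients or growth signals are low. Maf1 was at 74.7 and 86.9 RPM in the libraries labelled Myc_KO, 81.5 and 75.2 in Max_KO, 68.2 and 79.1 in those labelled double_KO, and 74.3 and 74.2 in control. The groups overlapped. Its log2 change was 0.05 ± 0.098 (SE, limma adjusted p = 0.697) in libraries lacking Myc and 0.08 ± 0.114 (SE, limma adjusted p = 0.624) in Max_KO, with adjusted p from 0.17 to 0.987 and 0.253 to 0.97 over the alternatives.

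Between the knock-out groups as labelled, limma called 0 of the 45 members in each of the 3 comparisons, beside 0.104% of all genes for Max_KO against Myc_KO, 0% for double_KO against Myc_KO and 0.209% for double_KO against Max_KO. At an unadjusted p under 0.05 there were 2, 1 and 0 members, beside 1413, 1316 and 1144 of the 12441 genes tested. With groups from the titles, 1 of the 45 members was called, beside 4.13% of all genes: Polr2h in Max_KO against Myc_KO, at a log2 change of 0.68 (limma adjusted p = 0.0352; the alternatives spanned 0.0352 to 0.995). By titles, Polr2h was at 30.4 and 25.1 RPM in Max_KO, 25.4 and 24.6 in double_KO, 18 and 16.6 in Myc_KO, and 34.9 and 30.9 in control. A p that misses the threshold does not show that the groups were alike.

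The other lists hold genes that work with polymerase II, build the enzymes or transcribe mitochondrial DNA. The share called in libraries lacking Myc was 50% for initiation, 45% for elongation, 40% for the complex that activates small nuclear RNA genes, 10% for assembly and 20% for mitochondrial transcription, beside 48.3% of all genes. In Max_KO these shares were 39.3%, 40%, 20%, 20% and 20%, beside 38.1%. Of 28 initiation factors, 8 were higher and 6 lower in libraries lacking Myc, and 7 and 4 in Max_KO. Those with the lowest adjusted p were the TFIID subunits Taf3, at 0.59 ± 0.092 (SE, limma adjusted p = 0.00136), and Taf1, at 0.36 ± 0.068 (SE, limma adjusted p = 0.00343). Of 20 elongation factors, 5 were higher and 4 lower in libraries lacking Myc, and 5 and 3 in Max_KO. Supt4a, a subunit of the pausing factor DSIF, was at -0.81 ± 0.094 (SE, limma adjusted p = 0.000366), and Rtf1, which acts with the Paf1 complex, was at 0.53 ± 0.069 (SE, limma adjusted p = 0.00062). Of the 5 subunits of the small nuclear RNA complex, Snapc5 rose, at 0.58 ± 0.135 (SE, limma adjusted p = 0.00883), and Snapc2 fell, at -0.37 ± 0.122 (SE, limma adjusted p = 0.037). Of 10 assembly factors, 0 were higher and 1 was lower, the ATPase Ruvbl2, at -0.51 ± 0.105 (SE, limma adjusted p = 0.00502), and 2 were lower in Max_KO. Of 5 mitochondrial transcription genes, 1 was higher in each comparison, the initiation factor Tfb2m, at 0.55 ± 0.14 (SE, limma adjusted p = 0.0129) and 0.71 ± 0.162 (SE, limma adjusted p = 0.0103). In libraries lacking Myc, calls were lost without control replicate 1 for Ruvbl2 and Tfb2m, and without control replicate 2 for Snapc5, Snapc2 and Tfb2m. Snapc2 also lost its call without any 1 of the 4 libraries lacking Myc, with the 6 undisputed libraries and with same-total scaling. The Tfb2m call in Max_KO was lost without Max_KO replicate 2 or control replicate 1. Adjusted p reached 0.0546 for Ruvbl2, 0.0834 for Snapc5, 0.315 for Snapc2 and 0.11 for Tfb2m in libraries lacking Myc.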

How the data were processed

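Transcripts were measured in 8 libraries. The authors deposited log2 values for 15681 genes, which range from -5.23 to 14.51. CASAVA 1.8, cutadapt and RSEM 1.2.3 with build GRCm38 are named per the submitters' processing notes; the tool that made the log2 values, the annotation, strand setting and filters are not stated in these sources. Taking the lowest value of each library as 0 reads with an offset of 0.5 read, all values were multiples of 0.01 read (largest deviation 1e-08 read), which gave estimated reads and an effective library size. Total over effective size was 0.956 to 0.995 in knock-out libraries and 1.043 to 1.092 in control, so changes are relative to the bulk of genes. Since these reads are not whole, no count test was used.

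Symbols, coordinates and exon lengths came from GENCODE vM21. Genes reaching 1 RPM in 2 libraries were kept. The deposited log2 values were fitted by limma (3.58.1, under R 4.3.3) using lmFit and then eBayes with a trend, with 1 coefficient for each of 4 groups; residual degrees of freedom were 4, and prior 4.2. All tests were two-sided, with Benjamini-Hochberg adjustment over 12441 genes and a threshold of 0.05. Groups follow the description and genotype fields. For 1 member, no values are reported here, though counts include it. Members, roles, lists and ratios were chosen with earlier results of these data known. Values in every library are given for called members in order of adjusted p and for Polr3g, Polr3gl, Polr1a, Polr2a, Polr3a, Maf1, Ubtf and Rrn3; other genes named are the up to 2 called genes with the lowest adjusted p of each list, the polymerase I and III subunits under other symbols, and Mtif3. Alternatives were another offset, no filter, median-of-ratios, same-total and quantile scaling, voom weights, a replicate block, title groups, the undisputed libraries, the compared groups alone, and each library left out. The number series of the titles, and the 4 libraries lacking Myc as 1 group, were added after seeing the data. Scripts used Python 3.11.15 (matplotlib 3.10.9, scipy 1.17.1, numpy 2.4.6, pandas 2.3.3).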

Additional observations from a re-analysis of the deposited data

How the results depend on the processing

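With 2 libraries in each group, single control libraries decide many of the calls. Leaving out each library in turn gave 10 to 24 members called in libraries lacking Myc, 7 to 18 in Max_KO, 7 to 20 in Myc_KO and 10 to 18 in double_KO. A lone remaining library is then assumed to vary like the other groups. A term for titles numbered 40 or more was fitted with the groups as labelled only. With it, 13 members were called in libraries lacking Myc, 10 in Max_KO, 20 in Myc_KO, and 0 in double_KO by limma (10 at an unadjusted p under 0.05), beside 29.9%, 23.5%, 41.7% and 2.68% of all genes. The cause of the lower counts was not tested, and all genes were not counted at the unadjusted level. With groups from the titles, 1 member was called in Max_KO against Myc_KO, beside 4.13% of all genes, and the cause was not tested. Libraries with the same replicate number, in the groups as labelled, had correlations of their deviations from -0.11 to 0.26. The highest was between Myc_KO and double_KO, where 2 libraries are disputed. This check therefore does not settle whether the numbers pair the libraries. The replicate block gave 27 members called in libraries lacking Myc, 21 in Max_KO, 25 in Myc_KO and 20 in double_KO, beside 52.2%, 43.5%, 45.7% and 46.9% of all genes. The other alternatives kept the counts within 1.5 times, and no called member changed sign. The values depend on an effective library size set by the authors, and transcripts per cell were not measured.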
